A study of Mus musculus with 9 samples.

Results

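The genes described here are those of B cells and of the lymphoid follicles that form beside arteries: Cxcl13, Ccl19, Ccl21a, Cxcr5, Ms4a1, Cd79a, Cd79b, Ltb and Jchain. These 9 genes were taken by name from a deposited expression table of the mouse aorta with 54532 rows, and they fill 11 of its rows, because Ccl19 and Ccl21a each have 1 row on chromosome 4 and another on a scaffold. RNA was sequenced from 9 aortas, 3 in each of 3 groups. All animals were Apoe-/- mice, a model of atherosclerosis without the lipoprotein ligand apolipoprotein E, and they were 6 to 8 weeks old when a regimen of 24 weeks began. One group ate chow (CD), the next a high fat diet (HFD), and the last a high fat diet with ammonium iron(III) citrate injected into the peritoneum (HFD_IO), the iron overload group. The Apoe disruption is common to all groups, and a group injected without iron was not analysed here, so iron and injection cannot be told apart. The aorta was sequenced whole, so fewer cells of a type and less RNA per cell cannot be told apart either.

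CXCL13 is a chemokine of follicular stroma, follicular dendritic cells and some macrophages, and it draws B cells through the receptor CXCR5. CCL19 and CCL21 draw T cells, dendritic cells and naive B cells through CCR7, and lymphotoxin, whose beta chain is the product of Ltb, acts on stromal cells through its receptor to maintain these chemokines. In atherosclerotic mice such cells gather in the outer layer of the aorta as artery tertiary lymphoid organs, where B cells carry CD20 (Ms4a1) and the antigen receptor signalling chains CD79a and CD79b, and antibody-secreting cells make the joining chain Jchain that links polymeric IgM and IgA.

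The promoter of Cxcl13 is shown because Cxcl13 was the member that changed most between diets, and because lymphotoxin is known to act on this gene through NF-kappa B. It covers chr5:95956689-95956938 on the + strand of GRCm38.p6, the 250 bases before the RefSeq start. Capitals mark its TATAAA box, which begins 46 bases before the start and was the only match there among the motifs searched.

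Cxcl13 promoter: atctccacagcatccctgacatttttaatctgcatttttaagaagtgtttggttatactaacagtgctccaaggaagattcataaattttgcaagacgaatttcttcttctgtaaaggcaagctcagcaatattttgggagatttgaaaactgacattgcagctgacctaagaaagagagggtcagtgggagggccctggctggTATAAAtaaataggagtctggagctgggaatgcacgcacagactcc

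RefSeq promoters were found for 6 of the 9 genes: Cxcl13, Ccl19, Ccl21a, Cd79a, Ltb and Jchain. On either strand the kappa B consensus was in 1 of these 6, that of Ltb, 87 bases before its start, and in 7.25% of 32851 promoters of the same length. TATAAA was in 1 of the 6, that of Cxcl13, and in 12.4% of all. The octamer ATGCAAAT (1.60% of all), the EBF core CCCNNGGG (11.8%) and the GC box GGGCGG (32.7%) were in 0 of the 6. These are matches of letters in a window and say nothing of binding.

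Ccl19 and Ccl21a stand in a cluster of duplicated genes on chromosome 4, and short reads must be shared out among copies that hardly differ. The sequences below show how little they differ, in coding bases of the GENCODE M21 transcripts on GRCm38, with the differing bases in capitals. Over 402 coding bases, Ccl21a and Gm10591, an annotated copy on chromosome 4 at 42612195 to 42612860, differ by T84A and C194T, with positions counted from 1 at the A of the start codon. Bases 64 to 214 of both are these.

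Ccl21a: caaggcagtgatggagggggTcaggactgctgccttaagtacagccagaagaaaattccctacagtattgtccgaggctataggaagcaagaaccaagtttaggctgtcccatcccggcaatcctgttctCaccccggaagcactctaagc
Gm10591: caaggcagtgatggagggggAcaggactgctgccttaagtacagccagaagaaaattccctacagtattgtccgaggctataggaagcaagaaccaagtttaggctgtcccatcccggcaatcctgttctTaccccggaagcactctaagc

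Over a stretch of 324 bases that begins after the start codon, Ccl19 and the annotated pseudogene Ccl19-ps3 (chromosome 4, 42132559 to 42134171) have 0 differences. The pseudogene Gm12407 (chromosome 4, 41791989 to 41793601) differs from Ccl19 by C195T and G221C, with positions counted from 1 at the first base of that stretch. Bases 102 to 221 of the 3 are these.

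Ccl19: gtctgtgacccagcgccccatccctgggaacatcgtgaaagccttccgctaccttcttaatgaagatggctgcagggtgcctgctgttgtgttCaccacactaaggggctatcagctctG
Ccl19-ps3: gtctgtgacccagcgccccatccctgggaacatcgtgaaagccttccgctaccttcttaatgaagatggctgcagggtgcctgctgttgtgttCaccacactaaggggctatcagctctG
Gm12407: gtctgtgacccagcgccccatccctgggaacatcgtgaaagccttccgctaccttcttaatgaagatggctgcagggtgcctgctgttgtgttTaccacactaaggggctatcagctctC

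Levels are the deposited FPKM, which divide reads by gene length and a size factor of the library, and libraries are named by their columns in the table. The reads recovered from those values summed to between 16660963 and 18308450 per library, and 1 read in a gene of 1 kilobase was worth 0.0541 to 0.0615 FPKM. The size factor did not follow the summed reads. It was 1.05 in CD_1 (16660963 reads), 0.928 in HFD_3 (18158642 reads) and 1.06 in HFD_IO_1 (18308450 reads). The FPKM of a library therefore summed to different totals, from 289697 in CD_3 to 437079 in HFD_3, and rescaling to TPM removes that difference. Apoe was listed at 9.73 to 21.9 FPKM, and no library with an intact gene was analysed here to set this against. One library stood apart for B cell genes: in HFD_2, 17 of the 13883 genes tested (those that reached 1 FPKM in 3 libraries or more) were at least 4 times as high as in every other library (0.122%). Of these 17 genes 6 were immunoglobulin or T cell receptor segments and 3 were members (Cd79a, Cd79b and Ltb), and Fcmr, Pou2af1, Ccr7, Mzb1 and Ptprcap were among the rest. In CD_1, 9 of 14 T cell markers were highest, with a summed level of 70.3 FPKM beside 28.1 and 11.8 in the other CD libraries. Many results below are therefore also given without HFD_2 or CD_1, though not every result of the gene lists that moved. The part of these libraries in the group differences was not tested beyond those values.

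Cxcl13 rose on the high fat diet, and Cd79b passed the same test with a call that was lost in 6 of 17 alternatives. No member passed the test between the iron group and either other group. Changes are differences of log2(FPKM + 1) from a limma fit of all 9 libraries, with standard errors (SE) and p-values adjusted over 13883 genes, and the threshold is an adjusted p of 0.05. The filter kept 6 of the 9 members; Ms4a1, Cxcr5 and Ccl19 reached 1 FPKM in at most 1 library and were set aside. Cxcl13 was kept only through the 2 high fat groups, since it was under 1 FPKM in every CD library, so counts over the kept members are descriptions.

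Between HFD and CD, 2 of the 6 tested members were higher and 0 lower, where 39.4% of all tested genes were called and 21.8% were called higher. The share of members, 2 of 6, lay near that background. Their median change was 1.64, beside 0.06 for all tested genes, and 0.84 without HFD_2. In the same comparison every HFD library was above every CD library for 2 of the 6 members, beside 28.2% of all tested genes, and 50.7% of tested genes were without overlap in either direction.

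Between HFD_IO and HFD, 28.6% of all tested genes were called, 14.1% higher and 14.5% lower. Limma called 0 of the 6 members, and 3 had an unadjusted p under 0.05. Voom on the recovered reads also called 0, with 1 at an unadjusted p under 0.05. The median change was -1.42, and -0.69 without HFD_2, beside 0.00 for all tested genes. For 3 of the 6 members (Cd79a, Cd79b and Ccl21a) every HFD_IO library was below every HFD library, beside 24.4% of all tested genes (48.5% without overlap in either direction). For Ccl21a the nearest libraries, HFD_IO_2 and HFD_2, held 18 reads each and differed only through the divisor.

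Between HFD_IO and CD, limma called 0 of the 6, where 32.5% of all tested genes were called, and voom called 0. Cxcl13 alone had an unadjusted p under 0.05 and groups that did not overlap, beside 24.3% of tested genes without overlap and higher, and 47.0% in either direction. The median change was 0.59, beside -0.01 for all tested genes. All 3 comparisons share groups, so their values stand side by side and are not independent of each other.

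The counts moved with the libraries and genes kept. Without HFD_2 the members called were again 2, 0 and 0 in the order HFD against CD, HFD_IO against HFD and HFD_IO against CD, where 28.1%, 19.9% and 30.6% of all tested genes were called. Without CD_1 they were 2, 1 and 0 (44.4%, 35.6% and 36.3% of all), and without both libraries 5, 1 and 2 (36.1%, 27.8% and 34.5%). With no filter on low values, 1 of 9 members was called between HFD and CD, that of Cxcl13, and 0 in the other comparisons (16.0%, 9.51% and 14.1% of 30663 genes).

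**Figure D1:**
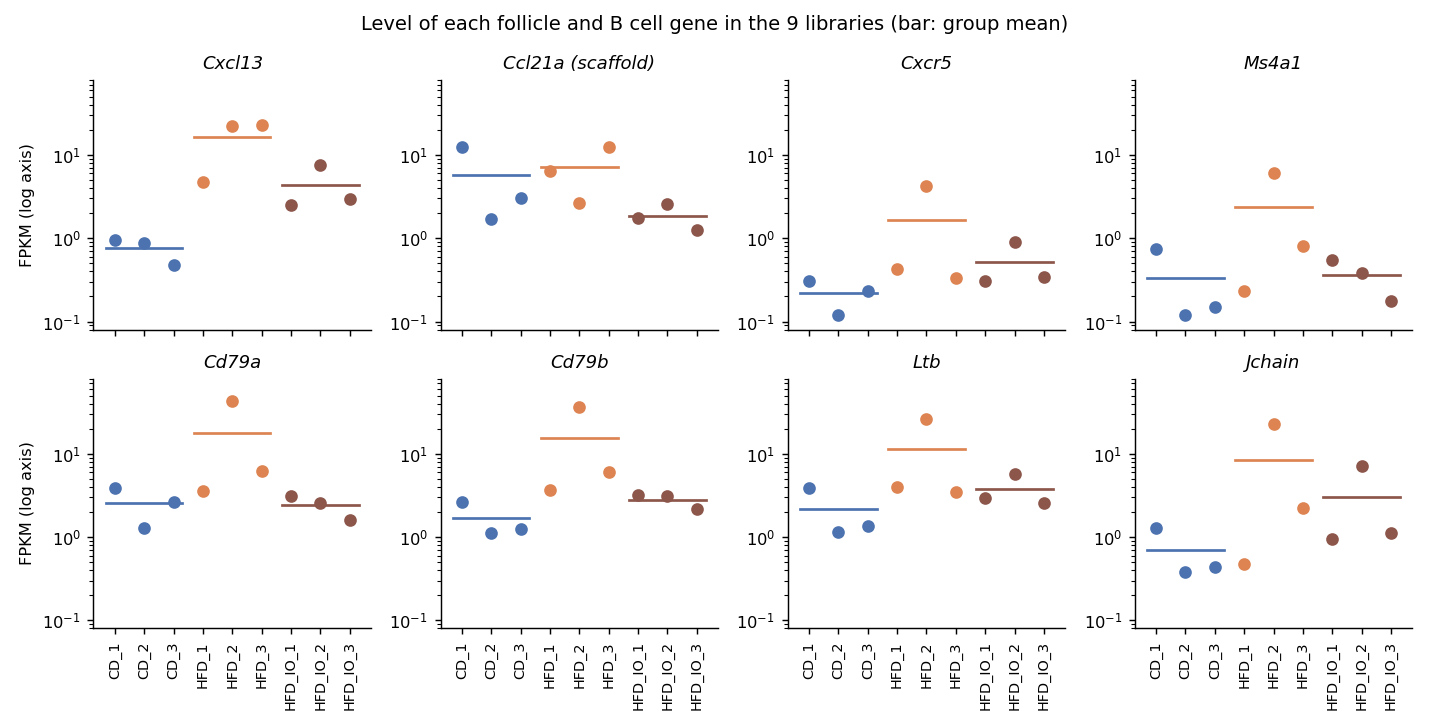
Level in FPKM, on a log axis, of 8 of the genes in the 9 libraries; points are libraries coloured by group and bars are group means, with Ccl21a shown by its row on the scaffold. HFD_2 is the highest library for Cxcr5, Ms4a1, Cd79a, Cd79b, Ltb and Jchain, while Cxcl13 is high in both HFD_2 and HFD_3 and above CD in every library of the other 2 groups.

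Cxcl13 (ENSMUSG00000023078, chromosome 5, 95956951 to 95961068, + strand, GRCm38) was listed at 0.946, 0.887 and 0.478 FPKM in CD_1, CD_2 and CD_3. It was at 4.77, 22.1 and 23.0 FPKM in the HFD libraries and at 2.49, 7.58 and 2.96 FPKM in the HFD_IO libraries, from 10 to 429 reads. All 6 libraries of mice on the fat diet lay above all 3 on chow, HFD_2 and HFD_3 stood highest, and HFD_1 fell within the range of HFD_IO. White adipocyte markers moved in the same direction between groups: of 10 tested, 3 rose from CD to HFD (Cidec, Fabp4 and Lep; median change 1.06), and 0 rose and 2 fell from HFD to HFD_IO (Cidec and Lep; median change -1.13). Of all tested genes 21.8% were called higher from CD to HFD and 14.5% lower from HFD to HFD_IO. By limma the rise of Cidec was called in 11 of 18 alternatives and that of Fabp4 in 15 of 18. The fall of Cidec (adjusted p = 0.0485) was called in 5 of 18. Both changes of Lep were called in each of 17 alternatives, though Lep passed the filter only through HFD. The summed level of the adipocyte markers was 531 to 1120 FPKM in CD, 1194, 1228 and 3103 in HFD_1, HFD_2 and HFD_3, and 329.9, 1830 and 911.7 in HFD_IO_1, HFD_IO_2 and HFD_IO_3. HFD_3 and HFD_IO_2 were highest of their groups in both, while HFD_1 and HFD_2 lay close in these markers and apart in Cxcl13, and the part of adipocytes in the Cxcl13 result was not tested.

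The group means of Cxcl13 were 0.770 ± 0.255, 16.6 ± 10.3 and 4.34 ± 2.81 FPKM in CD, HFD and HFD_IO (SD, n = 3), so the order of the levels was HFD, HFD_IO, CD. It rose by 3.07 (SE 0.54, adjusted p = 0.00311) from CD to HFD and passed the threshold in each of 18 alternatives, with a change of 2.72 to 4.12. Without HFD_2, the library that led the B cell genes, the change was 2.74 (adjusted p = 0.0137). HFD_IO and HFD differed by -1.58 (SE 0.54, adjusted p = 0.0539) and HFD_IO and CD by 1.48 (SE 0.54, adjusted p = 0.0616). Neither difference between neighbours in the order passed the threshold. The first difference was called without HFD_1 (-2.26, adjusted p = 0.00503) without HFD_IO_2 (-1.99, adjusted p = 0.0424) or among genes of at least 5 FPKM (adjusted p = 0.0427), and the last was called without HFD_1 (adjusted p = 0.00846), at a pseudocount of 0.1 (2.22, adjusted p = 0.0236), after rescaling to TPM (adjusted p = 0.0289), or with the 2 groups alone (adjusted p = 0.0154).

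Ccl21a, a ligand of CCR7 made by lymph node stroma and lymphatic vessels, was read almost only from the scaffold row (ENSMUSG00000095320, JH584294.1, 121048 to 121713, - strand). That row was at 12.4, 1.69 and 3.01 FPKM in CD, at 6.40, 2.68 and 12.4 in HFD and at 1.75, 2.57 and 1.27 in HFD_IO, from 9 to 92 reads. CD_1 and HFD_3 were the high libraries, HFD overlapped CD, and the 3 HFD_IO libraries were all below the 3 HFD libraries, by a margin of 2.57 to 2.68 FPKM at the nearest. Those nearest libraries, HFD_IO_2 and HFD_2, held 18 reads each, so in reads of this row the groups met. The row on chromosome 4 (ENSMUSG00000094686, 42772860 to 42773993, - strand) held at most 2 reads in any library.

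On the scaffold row, HFD and CD differed by 0.44 (SE 0.60, adjusted p = 0.582), HFD_IO and HFD by -1.34 (SE 0.60, adjusted p = 0.125) and HFD_IO and CD by -0.90 (SE 0.60, adjusted p = 0.29). The order of the mean levels was HFD, CD, HFD_IO, and no difference between neighbours in it passed the threshold. CD_1 alone held 92 reads of this row, beside 12 and 22 in the other CD libraries. Without it HFD_IO was called lower than HFD (-1.34, adjusted p = 0.0439), and without both CD_1 and HFD_2 HFD was also called higher than CD (1.60, adjusted p = 0.0149). Without CD_2 or HFD_3 the difference between HFD and CD was at -0.04 and -0.01.

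The split among near-identical copies was uneven between libraries, which bears on every value of Ccl21a. In HFD_2, Gm10591 held 60 of the 85 reads of the 9 Ccl21 rows and the Ccl21a row on the scaffold held 18, while in HFD_1 Gm10591 held 2 of 49 and the scaffold row 45. Summed over the 9 rows the reads were 114, 22 and 38 in CD, 49, 85 and 122 in HFD, and 22, 33 and 19 in HFD_IO. The HFD_IO sums were all below the HFD sums, and 2 of the 3 CD libraries lay near the HFD_IO range.

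By voom on the summed reads, HFD_IO was at -1.79 against HFD (adjusted p = 0.055, and 0.0186 without CD_1). HFD was at 0.87 against CD (adjusted p = 0.213), a difference that was called without CD_1 (1.52, adjusted p = 0.0415).

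Ccl19, the other CCR7 ligand, had almost no reads in its own rows. The chromosome 4 row (ENSMUSG00000071005, 42754525 to 42756577, - strand) held 3 reads in HFD_2, 1 in HFD_IO_1 and 0 in the other 7 libraries, and the scaffold row (ENSMUSG00000094661, JH584294.1, 102539 to 104139, - strand) held 15 in HFD_1 and 0 elsewhere. Most reads of Ccl19 and its copies were listed under the pseudogenes, and whether those reads came from Ccl19 itself was not tested. Ccl19-ps3, with the same bases as Ccl19 over the stretch compared, was at 10.7, 0.700 and 1.19 FPKM in CD, at 2.47, 29.5 and 20.7 in HFD and at 8.85, 10.4 and 8.39 in HFD_IO. HFD_2 and HFD_3, the libraries high in Cxcl13, were also the highest here, and CD overlapped both other groups through CD_1.

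Gm12407 was at 6.10 to 6.38 FPKM in CD, at 7.22 to 12.4 in HFD and at 6.64 to 20.7 in HFD_IO, where HFD_IO_1 was highest. Summed over 6 Ccl19 rows the reads were 102, 42 and 44 in CD, 84, 232 and 152 in HFD and 179, 98 and 86 in HFD_IO. By voom on these sums HFD was higher than CD by 1.40 (adjusted p = 0.0426), a call that was lost without HFD_2 (1.05, adjusted p = 0.121). HFD_IO and HFD differed by -0.39 (adjusted p = 0.51).

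**Figure D2:**
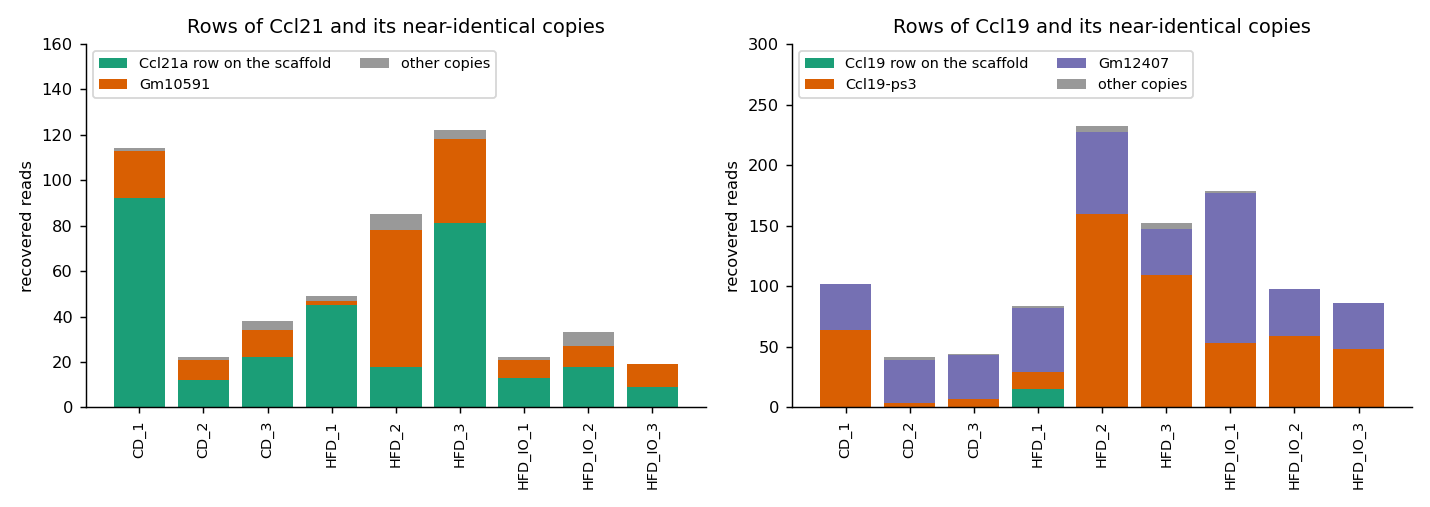
Recovered reads per library, in stacked bars, of the rows of Ccl21 (left) and Ccl19 (right) and their near-identical copies. The Ccl21 sums are 19 to 33 reads in HFD_IO and 49 to 122 in HFD, and most Ccl19 reads stand in the pseudogene rows Ccl19-ps3 and Gm12407.

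Cxcr5 (ENSMUSG00000047880, chromosome 9, 44511787 to 44561877, - strand), the CXCL13 receptor of follicular B and T cells, was at 0.310, 0.119 and 0.231 FPKM in CD. It was at 0.429, 4.25 and 0.332 in HFD and at 0.308, 0.895 and 0.340 in HFD_IO. HFD_2 was 4.75 times the next highest library, HFD_IO_2, and the other 7 libraries lay within 0.119 to 0.429 FPKM, so the receptor was low in HFD_3 where its ligand was highest. In a fit with no filter on low values HFD and CD differed by 0.82 (SE 0.48, adjusted p = 0.308) and HFD_IO and HFD by -0.53 (SE 0.48, adjusted p = 0.556), which turned to 0.11 without HFD_2.

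Ms4a1 (ENSMUSG00000024673, chromosome 19, 11249675 to 11266241, - strand), which encodes the B cell surface protein CD20, was at 0.738, 0.119 and 0.151 FPKM in CD. It was at 0.231, 6.07 and 0.806 in HFD and at 0.542, 0.380 and 0.174 in HFD_IO, from 13 to 628 reads. HFD_2 was 7.53 times the next highest library and 19.9 times the median of the other 8, and without it the 3 groups overlapped. With no filter HFD and CD differed by 0.94 (SE 0.57, adjusted p = 0.333) and HFD_IO and HFD by -0.88 (SE 0.57, adjusted p = 0.421).

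Cd79a (ENSMUSG00000003379, chromosome 7, 24897381 to 24902197, + strand), a signalling chain of the B cell receptor, was at 3.88, 1.28 and 2.60 FPKM in CD. It was at 3.61, 43.0 and 6.29 in HFD and at 3.16, 2.60 and 1.59 in HFD_IO. The mean over 3 HFD libraries, 17.6 ± 22.0 FPKM, was set by HFD_2; HFD_1 lay below CD_1, and the HFD_IO libraries lay within the CD range, at 2.45 ± 0.791 beside 2.59 ± 1.30 FPKM.

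HFD and CD differed in Cd79a by 1.73 (SE 0.71, adjusted p = 0.0803), and by 0.76 without HFD_2 (SE 0.35, adjusted p = 0.132). HFD_IO and HFD differed by -1.75 (SE 0.71, adjusted p = 0.0948), and by -0.78 without HFD_2 (adjusted p = 0.145). Without HFD_1 both differences were called, at 2.39 (adjusted p = 0.0271) and -2.40 (adjusted p = 0.033). HFD_IO and CD differed by -0.02 (SE 0.71, adjusted p = 0.99).

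Cd79b (ENSMUSG00000040592, chromosome 11, 106311341 to 106314762, - strand), the partner chain in the same receptor, was at 2.66, 1.11 and 1.27 FPKM in CD. It was at 3.71, 36.5 and 5.98 in HFD and at 3.21, 3.09 and 2.18 in HFD_IO. Every HFD library was above every CD and every HFD_IO library, with HFD_2 at 6.11 times the next, and CD_1 overlapped HFD_IO. The group means in CD, HFD and HFD_IO were 1.68 ± 0.853, 15.4 ± 18.3 and 2.83 ± 0.565 FPKM.

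Cd79b rose by 2.05 from CD to HFD (SE 0.64, adjusted p = 0.0328). Without HFD_2 the change shrank to 1.14 and its SE to 0.27, and it stayed past the threshold (adjusted p = 0.0198). The call was lost without CD_2 (adjusted p = 0.0924), without CD_3 (adjusted p = 0.0895), with the 2 groups alone (adjusted p = 0.0656), with no filter (adjusted p = 0.0826) and by voom on the recovered reads (adjusted p = 0.0644, and 0.0632 with at least 10 reads in 3 libraries). HFD_IO and HFD differed by -1.50 (SE 0.64, adjusted p = 0.11), and by -0.60 without HFD_2 (adjusted p = 0.156), and the difference was called without HFD_1 (-2.09, adjusted p = 0.0374). HFD_IO and CD differed by 0.55 (SE 0.64, adjusted p = 0.555), a difference called without both CD_1 and HFD_2 (0.80, adjusted p = 0.0226).

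The chains Cd79a and Cd79b pair in 1 receptor. The ratio of Cd79a over Cd79b in FPKM was 1.16 to 2.05 in CD, 0.972 to 1.18 in HFD and 0.732 to 0.982 in HFD_IO. HFD_2, with the most of both, was at 1.18. Every CD library was above every HFD_IO library in this ratio, and no test was run on it.

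Ltb (ENSMUSG00000024399, chromosome 17, 35194439 to 35196320, + strand), the membrane-anchoring chain of lymphotoxin made by B and T cells, was at 3.91, 1.16 and 1.38 FPKM in CD. It was at 4.03, 26.4 and 3.49 in HFD and at 2.96, 5.67 and 2.58 in HFD_IO. HFD_2 was 4.65 times the next library, HFD_IO_2, and CD_1, the library high in T cell genes, stood with the HFD libraries. HFD and CD differed by 1.54 (SE 0.64, adjusted p = 0.0863), by 0.70 without HFD_2 (adjusted p = 0.197), and by 1.07 without both CD_1 and HFD_2 (adjusted p = 0.0275). HFD_IO and HFD differed by -0.90 (SE 0.64, adjusted p = 0.318), which was -0.06 without HFD_2. HFD_IO and CD differed by 0.64 (SE 0.64, adjusted p = 0.491), and by 1.01 without both CD_1 and HFD_2 (adjusted p = 0.0242).

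Jchain (ENSMUSG00000067149, chromosome 5, 88519809 to 88527891, - strand) was at 1.30, 0.383 and 0.436 FPKM in CD. It was at 0.477, 22.8 and 2.22 in HFD and at 0.945, 7.13 and 1.13 in HFD_IO. HFD_2 and HFD_IO_2 were the 2 high libraries, HFD_1 lay within the CD range, and the 3 groups overlapped. HFD and CD differed by 1.55 (SE 0.93, adjusted p = 0.212), and by 0.40 without HFD_2. HFD_IO and HFD differed by -0.58 (SE 0.93, adjusted p = 0.665), which turned to 0.56 without HFD_2 (adjusted p = 0.547). HFD_IO and CD differed by 0.96 (SE 0.93, adjusted p = 0.469).

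**Figure D3:**
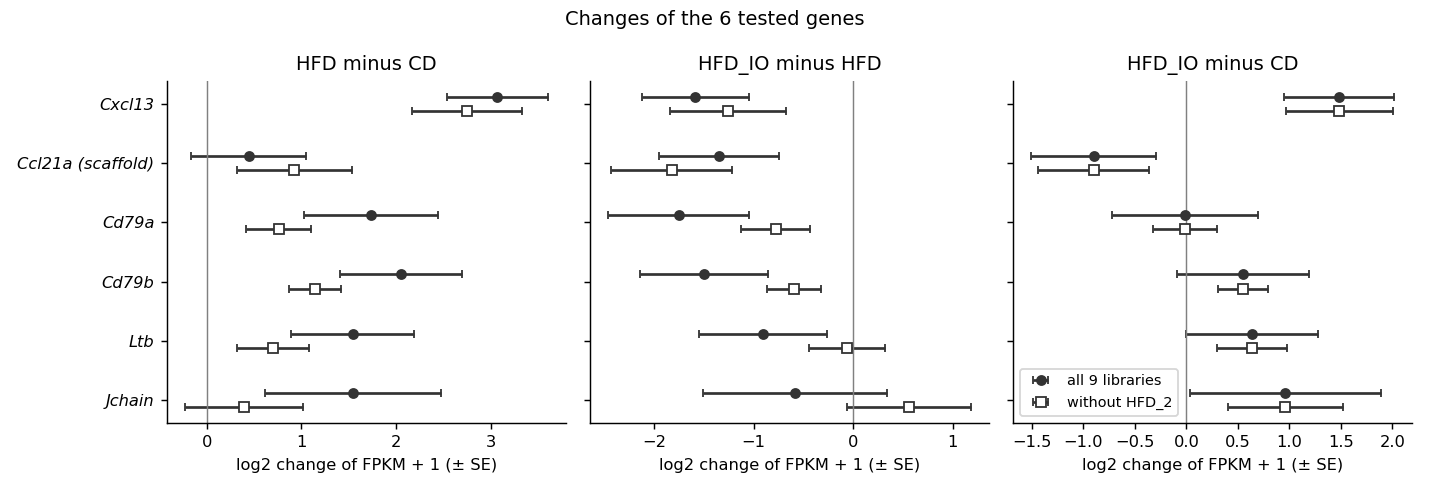
Changes in log2(FPKM + 1) of the 6 tested genes, with SE bars, in the 3 comparisons, from all 9 libraries (filled) and without HFD_2 (open). For Cxcl13 between HFD and CD both values stand near 3 (3.07 and 2.74), while those of Cd79a, Cd79b, Ltb and Jchain move toward 0 without HFD_2 and Jchain crosses 0 between HFD_IO and HFD.

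The libraries high in Jchain differed in their antibody classes. In HFD_2 the IgM and IgD constant genes Ighm and Ighd, which naive B cells express together, were at 303 and 24.9 FPKM and the kappa chain gene Igkc at 659. In HFD_IO_2 Ighm was at 91.8 and Ighd at 1.60, while the class-switched genes Ighg2c and Ighg1 were at 40.4 and 7.39, beside 21.4 and 0.761 in HFD_2. The other 7 libraries were at 15.8 to 44.1 FPKM for Ighm and at 0.0828 to 7.89 for Ighg2c. So HFD_2 led in IgM and IgD, and HFD_IO_2 led in IgG, with Jchain at 2.74 times Cd79a there and at 0.132 to 0.706 times Cd79a in the other 8 libraries. Of 11 constant genes 10 were tested. With all 9 libraries limma called 0 in each comparison, with 0 at an unadjusted p under 0.05, and voom called 0, with at most 1 at an unadjusted p under 0.05. Without HFD_2 limma called 1 higher in HFD_IO than in CD (Ighg3, by 1.15, adjusted p = 0.0468, beside 0.12 with it), with 3 at an unadjusted p under 0.05. The median change of these genes moved without HFD_2 from 1.38 to 0.48 between HFD and CD, and turned from -0.28 to 0.59 between HFD_IO and HFD.

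**Figure D4:**
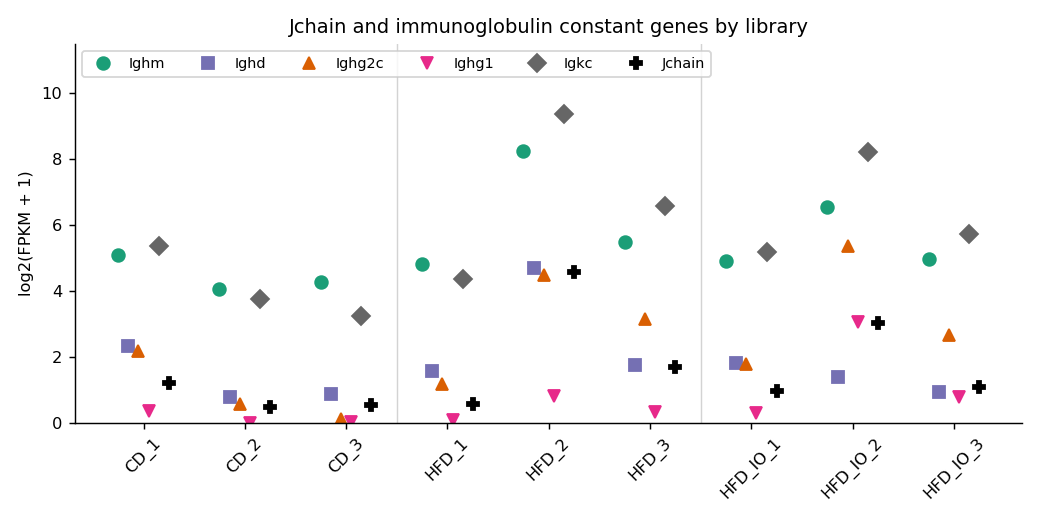
Levels of Jchain and 5 immunoglobulin constant genes in each library as log2(FPKM + 1); points of a library are set slightly apart for legibility. HFD_2 is highest for Ighm, Ighd, Igkc and Jchain, and HFD_IO_2 for Ighg2c and Ighg1.

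A list of 20 other genes of B cell identity and receptor signalling fell into separate patterns. In HFD_2, 12 of the 20 were highest and at least 2 times the next library, by 2.18 to 12.9 times. Among these 12 were Cr2, Fcer2a, Blk, Pax5, Pou2af1, Spib, Bank1, Fcrla, Fcmr, Vpreb3 and Tnfrsf13c. Of those named only Pou2af1 and Fcmr passed the filter. Over all tested genes, which leave out such low rows, the share was 0.267%, so it is not a like background for the 12. Tnfrsf13c, the BAFF receptor of B cells, was at 6.83 FPKM in HFD_2 and at most 0.528 elsewhere. In contrast 7 of the 20 were highest in an HFD_IO library: Cd22, Cd72, Blnk, Btk, Cd37, Cd40 and Pou2f2. Btk, Blnk, Cd37 and Cd72 are also expressed by macrophages and other myeloid cells.

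Of these 20 genes 11 were tested. From CD to HFD 5 rose and 0 fell, where 39.4% of all tested genes were called and 21.8% were called higher. The median change was 1.18, beside 0.06 for all tested genes, and 0.44 without HFD_2. Among the 5 were Cd22 by 1.70 (SE 0.35, adjusted p = 0.00579), Blnk by 1.46 (SE 0.23, adjusted p = 0.00218) and Cd72 by 1.44 (SE 0.33, adjusted p = 0.00955). From HFD to HFD_IO 4 rose and 0 fell (median change 0.63), beside 14.1% of all tested genes called higher. Among the 4 were Cd72 at 1.73 (adjusted p = 0.00686), Pou2f2 at 1.09 (adjusted p = 0.00801) and Btk at 1.06 (adjusted p = 0.00893). Without HFD_2 Blnk was called higher too (0.89, adjusted p = 0.0162). Against CD, 6 were higher in HFD_IO, beside 17.5% of all tested genes called higher. Among these 6 were Cd72, from 1.83 ± 0.534 to 25.9 ± 11.8 FPKM, and Cd37, from 4.32 ± 1.05 to 21.9 ± 2.31. Of the listed genes named here and below, Pou2f2, Prdm1, Ccr7, Ackr4, Cxcr3, Tnf and Cd6 passed the filter only through the group where they were higher, as Lep did, so the counts over lists are descriptions too.

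While these genes rose from HFD to HFD_IO, Cd79a and Cd79b were at -1.75 and -1.50 in the same comparison, without passing the test. The 12 macrophage markers moved with the genes that rose: their summed level was 619 to 696 FPKM in CD, 2994 to 4998 in HFD and 4811 to 8230 in HFD_IO. Of these 12, 10 rose from HFD to HFD_IO with 0 falling, beside 14.1% of all tested genes called higher. The part of macrophages in the changes of Cd72, Btk, Blnk and Cd37 was not tested. In HFD_2, 0 of the 12 macrophage markers were highest.

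**Figure D5:**
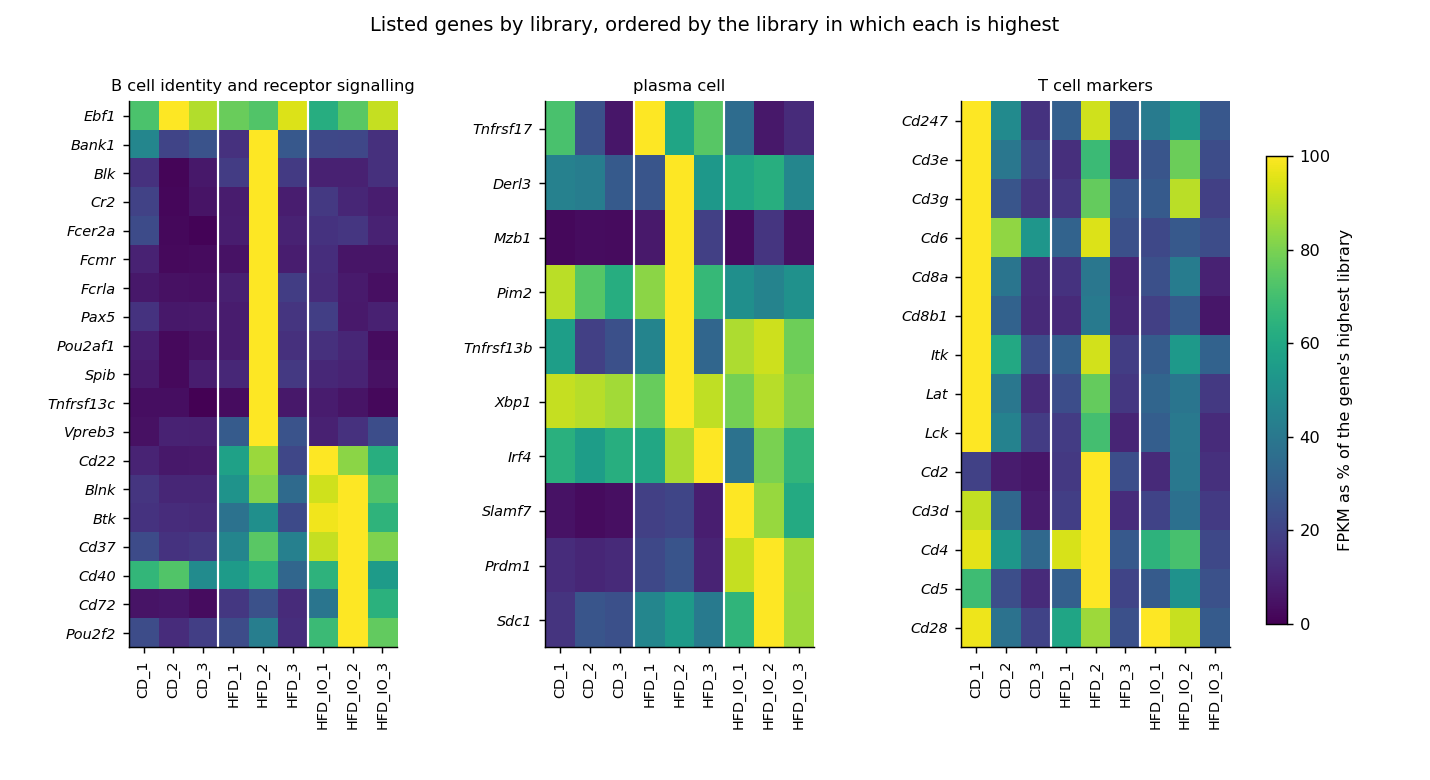
Level of each listed gene in the 9 libraries as a percentage of its highest library, for B cell (1 gene of the list not shown), plasma cell and T cell lists; rows are ordered by the highest library and white lines part the groups. A block of B cell genes from Bank1 to Vpreb3 is highest in HFD_2, Cd22 to Pou2f2 are highest in HFD_IO, and 9 of 14 T cell markers are highest in CD_1.

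Of 10 plasma cell genes 8 were tested. Mzb1, a chaperone for IgM secretion, followed HFD_2 (12.8 FPKM there and at most 2.45 elsewhere), and was not called between HFD and CD (adjusted p = 0.0531, and 0.0478 after rescaling to TPM). From HFD to HFD_IO 3 rose: Slamf7, a surface receptor of plasma cells and of macrophages and natural killer cells, from 3.52 ± 1.49 to 18.0 ± 4.32 FPKM (2.11, SE 0.26, adjusted p = 0.00153), Prdm1, which encodes the plasma cell regulator BLIMP-1, from 0.236 ± 0.103 to 1.14 ± 0.0896 (0.79, adjusted p = 0.0047, with no library outside HFD_IO above 0.322 FPKM) and Sdc1, the surface proteoglycan CD138 of plasma cells and epithelia, by 0.79 (adjusted p = 0.0276). The call of Sdc1 was lost without HFD_1 (adjusted p = 0.0611), HFD_3 (0.0927), HFD_IO_2 (0.091) or HFD_IO_3 (0.0716), and with no filter (0.0691). Pim2, a survival kinase of lymphoid cells named after its values were seen, fell by 0.53 (SE 0.14, adjusted p = 0.0237, a call lost in 7 of 17 alternatives). Tnfrsf17, the receptor BCMA that plasma cells depend on, was at most 1.12 FPKM and was not tested. From HFD to HFD_IO the median change of the list was 0.18, and 14.1% of all tested genes were called higher and 14.5% lower.

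Germinal centre and follicular T cell genes were mostly near 0. Of 13 genes 3 were tested, and Rgs13 was at most 0.144 FPKM, Gcsam at most 0.367 and Il21 at most 0.125. Bcl6, a repressor required in germinal centres and also expressed outside the immune system, rose by 0.81 from CD to HFD (SE 0.18, adjusted p = 0.00836). S1pr2, a sphingosine 1-phosphate receptor of germinal centre B cells that vessels also express, rose by 0.77 from HFD to HFD_IO (SE 0.14, adjusted p = 0.00504) and was at 6.59 ± 0.444 FPKM there. Bcl6 was lower in HFD_IO than in HFD (-0.56, adjusted p = 0.0464), a call lost in 10 of 18 alternatives. Fas fell from CD to HFD by 0.41 (adjusted p = 0.0437, a call lost in 11 of 18 alternatives).

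T cell markers were led by CD_1 and HFD_2, and with all 9 libraries none passed the test between HFD and CD. Of 12 tested, limma and voom each called 0 between HFD and CD and 0 between HFD_IO and HFD, with 0 at an unadjusted p under 0.05. Without HFD_2 limma called 1, Cd6, a surface receptor of T cells, lower in HFD than in CD (-0.71, adjusted p = 0.0281, beside 0.225 with it). The median change between HFD and CD was -0.14, and it was -0.64 without HFD_2 and 0.30 without CD_1. Between HFD_IO and HFD it was -0.16, and 0.32 without HFD_2. Limma and voom called 1, again Cd6, lower in HFD_IO than in CD (-0.79, limma adjusted p = 0.0417). By limma this call was lost without CD_1 (0.106), CD_2 (0.108) or any 1 of the HFD_IO libraries (0.0889 to 0.0967), and with no filter (0.0951). Their summed level was 11.8 to 70.3 FPKM in CD, 12.4 to 55.4 in HFD and 11.1 to 33.9 in HFD_IO. HFD_2 was second to CD_1, and 4 of 14 T cell genes were highest in HFD_2, beside 12 of 20 B cell genes.

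Of 14 receptors and partner genes of lymphoid chemokines, 11 were tested, and from CD to HFD 5 rose and 3 fell, where 39.4% of all tested genes were called. After rescaling to TPM 3 rose and 3 fell. Cxcr4, the CXCL12 receptor of B cells and many leukocytes, rose by 1.70 (SE 0.38, adjusted p = 0.00807). Ccr7, the receptor of CCL19 and CCL21, was at 6.59 FPKM in HFD_2 and at most 1.65 elsewhere, and its rise of 1.16 (SE 0.38, adjusted p = 0.0394) was lost in 8 of 17 alternatives. Ackr3, a scavenger of CXCL12, fell from 52.3 ± 3.87 to 25.3 ± 6.02 FPKM (-1.04, adjusted p = 0.0018). Ackr4, a scavenger of CCL19 and CCL21 named after its values were seen, fell by 0.60 (SE 0.14, adjusted p = 0.00931), from 1.54 ± 0.204 to 0.680 ± 0.121 FPKM.

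From HFD to HFD_IO 3 of these 11 rose and 0 fell, beside 14.1% of all tested genes called higher and 14.5% lower. Ch25h, which makes 25-hydroxycholesterol, was at 0.912 to 1.73 FPKM in HFD and at 8.37 to 14.9 in HFD_IO, a rise of 2.30 (SE 0.31, adjusted p = 0.00189). Gpr183, the receptor that guides B cells along gradients of a sterol made by Ch25h and Cyp7b1, rose by 0.82 (SE 0.20, adjusted p = 0.0156, and 0.0507 without HFD_IO_2). S1pr1, a lymphocyte and endothelial receptor for sphingosine 1-phosphate, rose by 0.85 (adjusted p = 0.00584). Against CD, 6 were higher and 1 lower, with Cxcr3 at 1.62 (adjusted p = 0.00229).

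In the lymphotoxin and TNF pathways the receptors Ltbr, Tnfrsf1a and Tnfrsf1b were above the ligands Lta and Tnf in FPKM in all 9 libraries. Ltbr, the lymphotoxin beta receptor, was at 30.6 ± 3.70, 38.5 ± 1.65 and 46.7 ± 2.05 FPKM in CD, HFD and HFD_IO, and Lta, the partner chain of Ltb, was at most 0.692 FPKM, in HFD_2. Tnfsf13b, which encodes BAFF, was at 1.82 to 4.04 FPKM, and its receptor Tnfrsf13c was above it in HFD_2 and below it in the other 8 libraries. Of 12 tested genes 4 rose from CD to HFD and 0 fell (median change 0.09), beside 21.8% of all tested genes called higher (14.1% from HFD to HFD_IO). Of the 12 only 1 was called higher from CD to HFD without HFD_2 and 1 without CD_1, and after rescaling to TPM 0 were higher and 1 lower. From HFD to HFD_IO 4 rose, a count that rescaling to TPM did not alter: Tnfrsf1b by 1.63 (SE 0.14, adjusted p = 0.000424), Tnf by 1.03 (SE 0.19, adjusted p = 0.00651, with no library outside HFD_IO above 0.663 FPKM), Map3k14, the kinase NIK that starts noncanonical NF-kappa B signalling, by 0.70 (SE 0.14, adjusted p = 0.00824), and Tnfrsf1a. Ltb and Cxcl13, a ligand and a known target of this pathway, were at -0.90 and -1.58 in the same comparison and did not pass the test.

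Of the listed genes of high endothelial venules, the vessels through which lymphocytes enter lymphoid tissue, 4 were low. Glycam1 was at most 1.12 FPKM, in HFD_2, Madcam1 at most 0.125 and Fut7 at most 0.609. Chst4, a sulfotransferase of these vessels, was highest on chow, at 0.810, 0.472 and 1.61 FPKM in CD, at 0.150, 0.0524 and 0.674 in HFD and at 0.0237 to 0.174 in HFD_IO, and none of the 4 was tested. Of 8 tested genes 4 rose and 1 fell from CD to HFD, beside 21.8% of all tested genes called higher and 17.6% lower. After rescaling to TPM 2 rose and 2 fell, and the median change was 0.42 before and 0.09 after it. Among those that rose were Mfge8, an opsonin of follicular dendritic cells, macrophages and smooth muscle, at 1.96 (SE 0.24, adjusted p = 0.000899) and Enpp2, the enzyme autotaxin of high endothelial venules and other cells, at 1.47 (SE 0.18, adjusted p = 0.000824). From HFD to HFD_IO 4 rose and 0 fell, beside 14.1% of all tested genes called higher, with Sele at 1.45 (adjusted p = 0.00455), Bst1 at 1.27 (adjusted p = 0.011) and Vcam1 at 0.90 (adjusted p = 0.00952). Endothelial cells express Sele and Vcam1, and general endothelial markers moved too. From CD to HFD 5 of 6 fell (median change -1.43), beside 17.6% of all tested genes called lower. From HFD to HFD_IO 2 rose, Cdh5 by 1.11 (adjusted p = 0.0301) and Tie1 by 0.90 (adjusted p = 0.0232). Cdh5 was called in 13 of 18 alternatives, and not without HFD_2 (adjusted p = 0.067), and Tie1 was called in 14 of 18. The summed level of the 6 endothelial markers was 381 to 557 FPKM in CD, 119.5 to 231 in HFD and 249.9 to 293 in HFD_IO, and the part of endothelial cells in these changes was not tested. Of 8 lymphatic endothelial genes 6 were tested, and Prox1, which defines that cell type, was at most 0.362 FPKM. From HFD to HFD_IO limma called 2 higher (Nrp2 and Pdpn) and 0 lower, and voom called 2 higher and 1 lower. Lyve1, another gene of the list, was at -0.70 (limma adjusted p = 0.053). It was called lower without HFD_2 (-0.98, adjusted p = 0.0117).

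The genes most like each member were sought among all tested genes by Pearson's r of log2(FPKM + 1), as a description. Over 9 libraries the 5 nearest to Cd79a included Cd79b (r = 0.972), Pou2af1 (0.972), Ccr7 (0.970) and H2-DMb2 (0.967), and those nearest to Jchain were led by Cd2 (0.972). For Cxcl13 they were Lsm4 (0.986), Derl1 (0.985), Tmem106b (0.978), Stt3b (0.971) and Serinc3 (0.971), and no gene of the B cell list was among them. Over the 8 libraries other than HFD_2 the nearest to Cd79a were Id2, Fuom, Ostc, Sar1b and Cetn3, and none of those named over 9 libraries was among them.

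Between members, r over 9 libraries was 0.958 to 0.975 among Ms4a1, Cd79a and Cd79b, and 0.741 to 0.836 over the 8 without HFD_2. Cxcr5 and Ms4a1 were at 0.923 and 0.182. Cxcl13 and Cd79b were at 0.808 and 0.872, while Ccl21a and Cd79b were at 0.126 and 0.596. All values of a library share its depth and scaling, and with 9 points from 3 groups these coefficients carry no test.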

How the data were processed

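RNA was sequenced from 9 whole aortas of Apoe-/- mice, 3 per group, with libraries named by the columns of 1 table. The authors deposited gene levels as FPKM, and the submitters' processing notes name HISAT2 and the human build hg38, although the gene IDs are of mouse (54495 of 54532 are in GENCODE M21, 98.33% with the same GRCm38 coordinates). For the counting tool, annotation release and strand setting nothing was given in the sources used, so reads of overlapping or antisense genes cannot be told apart. Whole reads were recovered from the deposited FPKM within 0.05 of a read.

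Genes with at least 1 FPKM in at least 3 libraries (13883) were fitted as log2(FPKM + 1) over all 9 libraries using limma (version 3.58.1, under R 4.3.3) and a trended variance. P-values were adjusted by Benjamini-Hochberg over these genes, and the threshold was 0.05. This scale understates the changes of low genes. The fit was tested on simulated data with the same dispersion for every gene and no library that stood apart. That test does not cover genes led by HFD_2. Alternatives were a pseudocount of 0.1, no filter, at least 5 FPKM, TPM, quantile normalization, the 2 groups alone and leaving out each library. Voom on recovered reads, sums over copies and leaving out CD_1 and HFD_2 together were chosen after seeing the data.

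Sequences came from RefSeq promoters (GRCm38.p6) and GENCODE M21. The members and gene lists were chosen with earlier results of these data known. From each list the text names up to 3 called genes per comparison with the largest change and no overlap of groups, beside defining markers (some listed genes are not reported here), and other list genes were named after their values were seen. The labels do not say that libraries of a group came from separate animals beyond their aorta numbers, so p-values measure the spread between these samples.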

Additional observations from a re-analysis of the deposited data

How the results depend on the processing

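No paired analysis was run, because the labels name separate aortas in each group and no pairs between groups. The columns of the table also carry numbers that do not match the aorta numbers of the labels. The planned edgeR and DESeq2 fits were not run, since the deposited values are FPKM. For genes tested across 3 comparisons, 141 alternative counts were within 1.5 times the reported count and 21 were not. For single genes, 369 values kept direction and side of the threshold, 19 passed it where the reported value did not, 7 no longer passed it and 13 turned direction.

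Of members called between HFD and CD (2), 1 was called with the 2 groups alone, with no filter, at 5 FPKM and by voom with either filter, and 5 without CD_1 and HFD_2. At 5 FPKM Cd79b did not pass the filter and was not tested. Leaving out 1 library gave 1 to 3. Between HFD_IO and HFD (0), 1 was called at 5 FPKM and 1 without CD_1 and HFD_2, and 0 to 3 when 1 library was left out. Between HFD_IO and CD (0), 1 was called at a pseudocount of 0.1, with TPM and with the 2 groups alone, and 2 without CD_1 and HFD_2, and 0 to 1 when 1 library was left out. Over all genes the leave-one-out counts were 3712 to 6160, 2275 to 4944 and 3045 to 5036, and over the listed genes 36 to 51, 33 to 51 and 47 to 57.

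Directions turned for small changes. When 1 library was left out, Ccl21a between HFD and CD ranged from -0.039 (without CD_2; -0.010 without HFD_3) to 1.121. Cd79a between HFD_IO and CD was at 0.239 without CD_1 (with or without HFD_2), 0.020 without CD_3 and 0.175 without HFD_IO_3, and its lowest value with 1 library left out was -0.309. Between HFD_IO and HFD, without HFD_2 (with or without CD_1), Cxcr5 was at 0.113 and Jchain at 0.565, and their lowest values with 1 library left out were -0.877 and -1.440. Ms4a1 between HFD_IO and CD was at -0.060 without CD_2, at -0.040 without CD_3 or HFD_IO_1, and at most 0.258. The cause was not tested. Rescaling to TPM moved the median of all genes to -0.295, 0.143 and -0.232 in the 3 comparisons. Rows near 0 reads (Ccl19, and Ccl21a on chromosome 4) were too shallow for any comparison.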
